A study of Capra hircus with 6 samples.

Results

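EIF1AD, EIF3I and RPS3A encode proteins of the machinery that makes and starts ribosomes on an mRNA. They are 3 of the 5154 genes of the deposited expression table and 3 of the 456 genes of it that could be paired with a symbol. They were chosen by their change between control and YBX1 knockdown embryos, and EIF1AD and RPS3A in particular for the depth of their fall. Their difference between the groups is therefore given as a description, without a test. The table itself holds only genes that the authors called differentially expressed between the same groups, 3531 of them down, so every gene with a row had already been selected on this contrast.

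The data came from goat embryos made by in vitro fertilization. Zygotes were microinjected in the cytoplasm with small interfering RNA (siRNA) against YBX1, an RNA-binding protein of the cold shock domain family, or with a universal negative control siRNA, and both groups were cultured in vitro to the 8-cell stage. There were 3 libraries of pooled and directly lysed embryos in each group, made with Smart-seq2, which amplifies full-length cDNA from polyadenylated RNA and carries no molecular identifiers. The study's methods state how many embryos of each group were pooled in 3 replicates, but their wording does not settle how many went into a single library, and separate cultures are not mentioned, so that the spread between libraries may be partly technical. YBX1 was not analysed here because its row could not be told from the pairs of identifiers and symbols, and the labels of the groups were therefore not checked against the targeted gene. In pooled embryos, a change in the RNA of each cell and a change in the mix of cells or embryos cannot be told apart. Levels scaled to the depth of each library do not give the amount of RNA per embryo.

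Translation of most mRNAs begins when the small ribosomal subunit, loaded with initiation factors, is recruited to the mRNA and scans to a start codon. The factor eIF3, a large complex of many subunits, binds the small subunit and bridges it to the mRNA. EIF3I is a subunit of eIF3 built of WD repeats, and sits with EIF3G and EIF3B in a mobile arm of the complex. RPS3A is a protein of the small subunit, also called eS1, which lies on the solvent side near the exit of the mRNA channel, where eIF3 docks. EIF1AD carries a domain related to the initiation factor eIF1A and has been found on late precursors of the small subunit, and it is listed with the initiation factors here because of this domain. The early embryo is known to rely on ribosomes and mRNAs stored in the oocyte until its own genome is transcribed, which in goat happens around the stage sampled.

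Levels are given as FPKM, fragment counts scaled for gene length and for the depth of each library. Controls 1, 2 and 3 held 10354990, 12192458 and 11052666 fragments. Knockdown libraries 1, 2 and 3 had a depth of 12098896, 11203666 and 12688297. Control 3 was the lowest of the controls in many of the genes described. It was the lowest control in 38.8% of the 4500 genes tested, in 53.1% of the 456 genes with a symbol and in 30 of 48 genes of translation (62.5%), among them all 3 genes chosen, although in EIF3I it was close to control 1.

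EIF1AD was the least abundant of the 3 genes. Its level was 161, 216 and 142 FPKM in controls 1, 2 and 3, and 4.29, 11.6 and 5.35 FPKM in knockdown libraries 1, 2 and 3. All knockdown libraries lay far below all controls, with knockdown library 2 the highest of its group and control 2 the highest of the controls. The means were 173 ± 38.4 FPKM and 7.07 ± 3.94 FPKM (SD, n = 3 each), a level 24.4-fold lower after knockdown. Over a gene model of 501 bases, these values rested on 835, 1317 and 784 fragments in the control group against 26, 65 and 34 fragments after knockdown. EIF1AD was thus still detected in all knockdown libraries.

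RPS3A had the highest level of the 3 genes in the controls. It reached 1505 and 1610 FPKM in controls 1 and 2 but only 579 FPKM in control 3, and 45.7, 42.5 and 78.4 FPKM in knockdown libraries 1, 2 and 3. Control 3 held 0.37 times the mean of the other controls and was still far above knockdown library 3, the highest of its group. The means were 1231 ± 568 FPKM and 55.5 ± 19.9 FPKM (SD, n = 3 each), a level 22.2-fold lower after knockdown. The gene model of 838 bases held 13060, 16453 and 5360 fragments in the control group against 463, 399 and 834 after knockdown. Genes of ribosomal proteins have many near-identical processed copies in mammalian genomes. The authors counted uniquely mapped reads, so that reads of RPS3A that also matched such a copy were lost in all libraries and its level is uncertain.

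EIF3I differed least between the groups. Its level was 400.0, 516 and 397 FPKM in controls 1, 2 and 3, and 183, 187 and 174 FPKM in knockdown libraries 1, 2 and 3. The knockdown libraries lay close together and all below the lowest control. The means were 438 ± 67.8 FPKM and 181 ± 6.403 FPKM (SD, n = 3 each), a level 2.41-fold lower after knockdown. Its model of 978 bases had between 2046 and 6154 fragments in each library, the deepest coverage of the lowest library among the 3 genes. FPKM sums all isoforms of a gene, and shifts between isoforms of EIF3I were not analysed here. In the RefSeq annotation of the goat assembly ARS1.2, another version than the authors used, the protein-coding gene TMEM234 overlaps EIF3I, and reads in the overlap are uncertain without strand. EIF1AD lies there between SART1 and BANF1, and RPS3A between MAB21L2 and SH3D19, with no overlap.

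**Figure D1:**
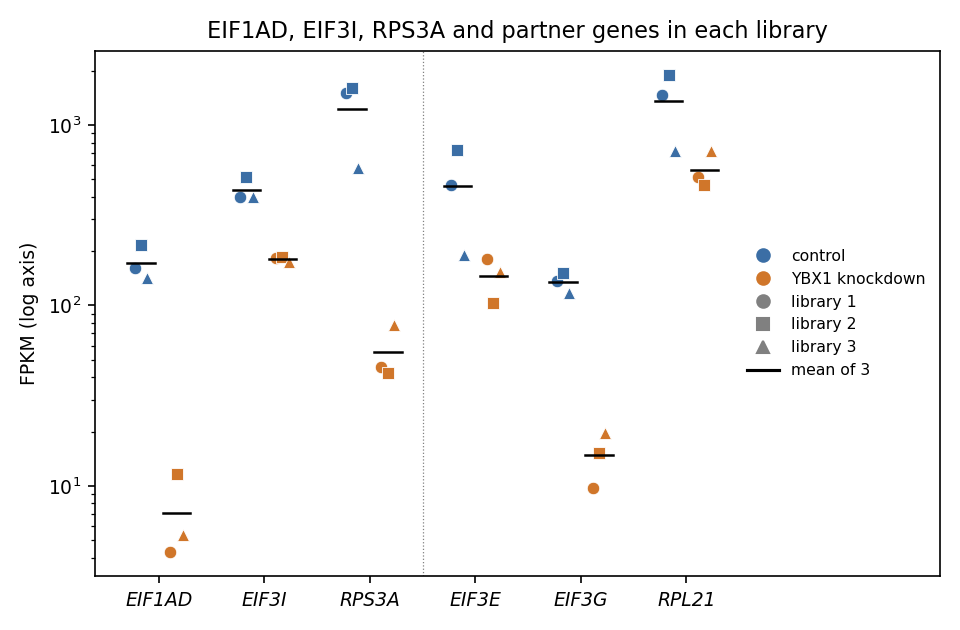
FPKM on a log axis of EIF1AD, EIF3I and RPS3A, and of 3 partner genes (EIF3E, EIF3G, RPL21), in each of 3 control and 3 YBX1 knockdown libraries, with a bar at the mean of each group. Knockdown libraries of EIF1AD sit between 4.29 and 11.6 FPKM and those of RPS3A between 42.5 and 78.4 FPKM, while those of EIF3I stay between 174 and 187 FPKM.

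The order of the levels changed between the groups. In every control RPS3A was the highest, EIF3I came next and EIF1AD was the lowest. In every knockdown library EIF3I was the highest and RPS3A came next, with EIF1AD again the lowest. Neighbours in this order did not overlap within a group in either case. The closest pair in the controls was RPS3A and EIF3I, where control 3 of RPS3A (579 FPKM) lay just above control 2 of EIF3I (516 FPKM). By mean control level RPS3A stood at rank 99 of the 5154 genes, EIF3I at rank 257 and EIF1AD at rank 525. By mean level after knockdown EIF3I stood at rank 349, RPS3A at rank 884 and EIF1AD at rank 2404.

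On the log2(FPKM + 1) scale, which understates the change of genes with low FPKM, the log2 fold change was -4.51 for EIF1AD (standard error 0.44), -4.36 for RPS3A (standard error 0.48) and -1.26 for EIF3I (standard error 0.37). Among the 456 genes with a symbol, DUSP11 at -4.38 separated EIF1AD from RPS3A, and CCNE1 at -4.21 came just after RPS3A. This order rested on the pseudocount and on single libraries. With a pseudocount of 0.1 EIF1AD stood at place 2 and RPS3A at place 6. Without control 3 RPS3A stood at place 2 and EIF1AD at place 3, without knockdown library 3 they stood at places 1 and 3, and without knockdown library 2 RPS3A stood at place 7. EIF3I stood at place 232, between TUFM at -1.26 and MAP2 at -1.24, next to the median of all genes tested (-1.24). Among all 4500 genes tested, EIF1AD stood at place 58 and RPS3A at place 76, so that steeper falls existed among genes without a symbol. RPS3A was -4.84 without control 3 and between -4.64 and -4.10 when any other library was left out. The scaling between libraries moved all genes: an equal FPKM sum in each library raised log2 fold changes by a median of 0.62 and the median of ratios by 0.87. EIF1AD then stood at -3.85 and -3.57, RPS3A at -3.66 and -3.37, and EIF3I at -0.54 and -0.26.

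Ratios between genes of the same library do not depend on the scaling between libraries. EIF1AD had 0.402, 0.418 and 0.356 times the FPKM of EIF3I in controls 1, 2 and 3, and 0.0234, 0.0620 and 0.0307 times in knockdown libraries 1, 2 and 3. This ratio was 10.1-fold lower after knockdown and the groups lay well apart. RPS3A had 3.76, 3.12 and 1.46 times the FPKM of EIF3I in the controls and 0.249, 0.228 and 0.450 times in the knockdown libraries, 8.998-fold lower, so that RPS3A went from above EIF3I to below it in all libraries. RPS3A to EIF1AD was 9.35, 7.47 and 4.09 in the controls and 10.6, 3.67 and 14.7 after knockdown. The groups overlapped in this ratio, and the mean of 6.97 ± 2.67 in the controls against 9.66 ± 5.56 after knockdown (SD, n = 3 each) differed by less than the spread of the knockdown libraries.

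**Figure D2:**
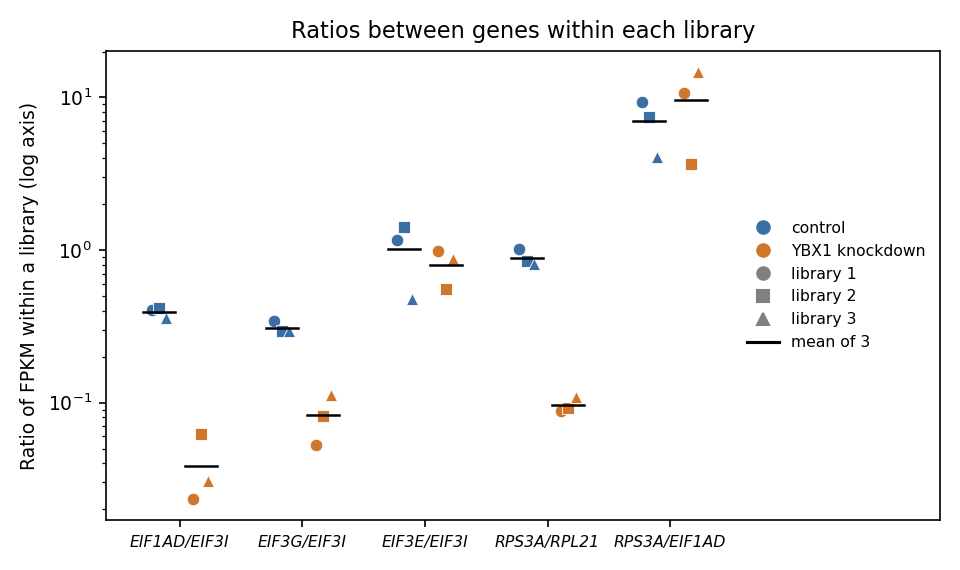
Ratios of FPKM between genes of the same library, on a log axis, in 3 control and 3 YBX1 knockdown libraries, with a bar at the mean of each group. EIF1AD, EIF3G and RPS3A were lower relative to their partner in all knockdown libraries, whereas EIF3E to EIF3I and RPS3A to EIF1AD overlapped between the groups.

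The other genes of translation were taken from lists by role, and 48 of the 78 listed genes that could be looked up had a row. A gene was called where the adjusted p of limma (Benjamini-Hochberg over the 4500 genes tested) was under 0.05 and its log2 fold change lay above 1 or below -1. Apart from the 3 chosen genes, 39 of 45 were called lower, 2 were called higher (PDCD4 and MRPS23) and 4 were not called (PABPC1, EIF5A2, DDX52 and WDR18). Over all genes tested, 56.2% were called lower and 34.1% higher, and among genes with a symbol 63.6% were called lower and 21.3% higher. All knockdown libraries lay below all controls in 39 of the 45 genes and above them in 2, against 57.8% below and 33.8% above over all genes tested, and 68.9% below among genes with a symbol. The median log2 fold change of the 45 genes was -1.89, against -1.24 over all genes tested and -1.27 among genes with a symbol. Because rows exist only for genes the authors had called, and the lists were drawn up with earlier results known, these counts describe the table and are no independent evidence of a direction. Scaling to an equal FPKM sum left 26 of the 45 genes called lower, and the calls of DCAF13, DRG1, EEF1AKMT2, EIF3E, EIF4A2, GNL2, LAS1L, MRPL32, MRPS18A, RPF1, RPL21, TUFM and UTP11 were lost. Over all genes 37.5% were then called lower and 35.3% higher. With the median of ratios 19 of the 45 were called lower, against 30.7% lower and 35.8% higher over all genes, and BUD23, MALSU1, METTL5, MRPL55, PNO1, SARS1 and UTP23 were lost as well. Leaving out single libraries gave between 31 and 40 of the 45 genes lower, against 50.0% to 57.4% lower and 31.8% to 34.5% higher over all genes tested.

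**Figure D3:**
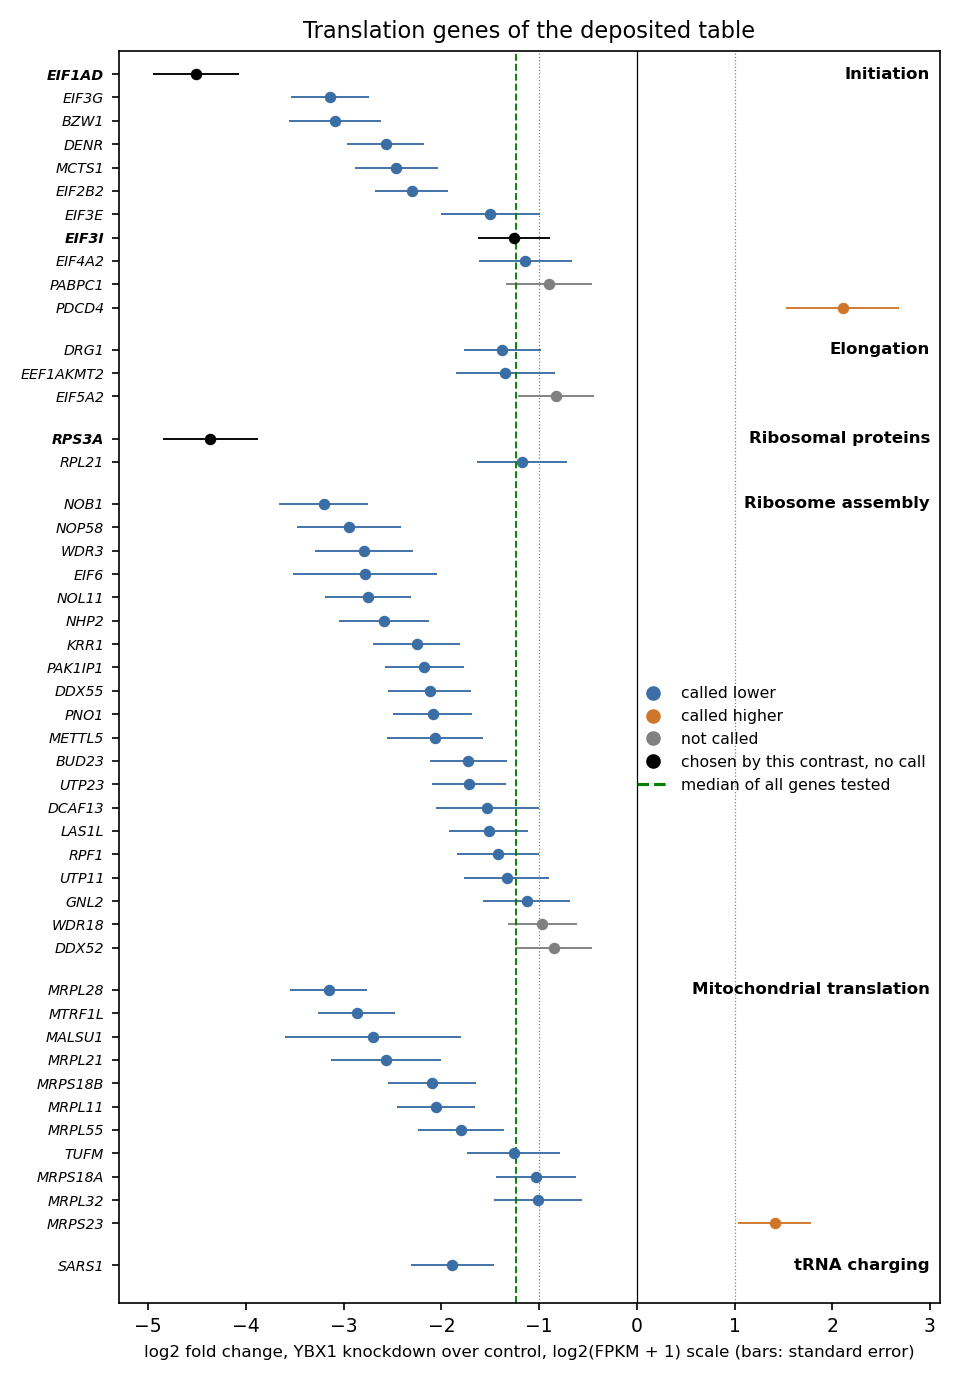
Log2 fold change (YBX1 knockdown over control, log2(FPKM + 1) scale) of the 48 genes of translation by role, with bars for the standard error, colours for the call (black for the 3 chosen genes, which carry none), dotted lines at -1 and 1 and a dashed line at the median of all genes tested (-1.24). EIF1AD at -4.51 and RPS3A at -4.36 lie farthest to the left, EIF3I at -1.26 lies on the dashed line, and PDCD4 and MRPS23 lie to the right of 0. With scaling by the median of ratios the points move right by between 0.614 and 0.999 (median 0.984) and PABPC1, EIF5A2 and DDX52 pass 0.

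Of the initiation factors and their regulators, 11 of 15 had a row. Of the 9 besides EIF1AD and EIF3I, 7 were called lower, 1 higher and 1 was not called, against 56.2% lower and 34.1% higher over all genes tested. Scaled to an equal FPKM sum 5 were called lower (37.5% over all genes), and by the median of ratios also 5 (30.7%). Among the subunits of eIF3, EIF3G, the neighbour of EIF3I in the mobile arm, was lower by a larger factor than EIF3I. Its level was 136, 151 and 117 FPKM in controls 1, 2 and 3 and 9.72, 15.3 and 19.6 FPKM in knockdown libraries 1, 2 and 3, and it was called at -3.14 on the log2 scale (standard error 0.40, limma adjusted p = 0.000158, lower in 3 of 3 libraries). EIF3G had 0.340, 0.293 and 0.295 times the FPKM of EIF3I in the controls and 0.0531, 0.0820 and 0.113 times after knockdown, so that the subunits changed unequally. EIF3E, a subunit of the core of eIF3, was at 466, 727 and 191 FPKM in the controls and 180, 103 and 153 FPKM after knockdown. Control 3 lay near knockdown library 1, and the ratio of EIF3E to EIF3I overlapped between the groups. EIF3E was called lower at -1.50 (adjusted p = 0.0154 from limma), and the call was lost without control 1 (adjusted p = 0.0518 from limma), without control 2 (0.0706) and without knockdown library 2 (0.0552).

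BZW1, which resembles the factor eIF5 and takes part in the choice of start codons, was the most abundant of the initiation genes in the controls. It was at 2140.0, 1949 and 864 FPKM in controls 1, 2 and 3 and at 133, 268 and 162 FPKM after knockdown, a log2 fold change of -3.09 (adjusted p = 0.000348 from limma). DENR and MCTS1 form a dimer that acts in ribosome recycling and reinitiation. DENR fell from a mean of 333 to 56.9 FPKM (-2.57) and MCTS1 from 26.0 to 3.90 FPKM (-2.46), and the ratio of DENR to MCTS1 overlapped between the groups, with means of 13.6 ± 3.58 and 15.5 ± 5.41 (SD, n = 3 each). EIF2B2, a subunit of the exchange factor that recharges eIF2 with GTP, fell from 34.9 to 6.29 FPKM (-2.31).

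The RNA helicase EIF4A2 and its inhibitor PDCD4 had opposite calls. EIF4A2 was at 430, 339 and 133 FPKM in controls 1, 2 and 3 and at 144, 111 and 112 FPKM after knockdown, so that control 3 lay within the knockdown libraries. Its call at -1.14 (adjusted p = 0.0369 from limma) was lost on leaving out control 1, control 2, knockdown library 2 or knockdown library 3, with adjusted p between 0.0843 and 0.159. PDCD4 was at 62.3, 12.6 and 17.8 FPKM in the controls and at 176, 104 and 68.3 FPKM after knockdown, and it was called at 2.11 on the log2 scale (standard error 0.58, limma adjusted p = 0.00586, higher in 3 of 3 libraries). Control 1 of PDCD4 lay just under knockdown library 3, and without control 1 the log2 fold change was 2.77. PABPC1, which binds the poly(A) tail, was at 153, 104 and 54.7 FPKM in the controls and at 53.5, 43.6 and 56.4 FPKM after knockdown. It was not called, and was called lower without control 3 (-1.29, adjusted p = 0.0101 from limma).

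Of the genes for elongation, recycling and decoding, 3 of 7 had a row. DRG1, a GTPase that binds ribosomes, and EEF1AKMT2, which methylates the elongation factor eEF1A, were called lower at -1.38 and -1.34. EIF5A2, an isoform of the factor that relieves stalled peptide bond formation, was at 124, 159 and 152 FPKM in the controls and 72.0, 109 and 67.3 FPKM after knockdown. It was not called, and was called lower without knockdown library 2 (-1.04, adjusted p = 0.0459 from limma). EEF1AKMT2 was at 150 FPKM in control 2 against 42.1 and 40.7 FPKM in the other controls. Its call was lost without control 2 (-0.73, adjusted p = 0.0896 from limma), without knockdown library 2 (0.0658) and without knockdown library 3 (0.0556).

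Of the cytosolic ribosomal proteins, RPS3A and RPL21 had a row among 3 that could be looked up, so that nothing can be said of the class as a whole. RPL21, a protein of the large subunit, was at 1474, 1902 and 716 FPKM in controls 1, 2 and 3 and at 517, 464 and 717 FPKM in knockdown libraries 1, 2 and 3. Control 3 and knockdown library 3 were nearly equal, so that the groups overlapped. Its log2 fold change was -1.18 (adjusted p = 0.0286 from limma), and the call was lost without control 1 (adjusted p = 0.0912 from limma), control 2 (0.109), knockdown library 1 (0.0584) or knockdown library 2 (0.0823). RPS3A and RPL21 had like levels in the controls, with ratios of 1.02, 0.847 and 0.808, and control 3 was low in both. After knockdown RPS3A had 0.0883, 0.0915 and 0.109 times the FPKM of RPL21, a ratio 9.25-fold lower. The same caution on near-identical copies holds for RPL21.

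Ribosome assembly was the largest list, with 20 of 34 genes in the table. Of these 18 were called lower (56.2% over all genes tested), and WDR18 and DDX52 were not called. The median log2 fold change was -2.08. Scaled to an equal FPKM sum 13 of the 20 were called lower (37.5% over all genes), and by the median of ratios 9 (30.7%), with a median of -1.10. Late steps of the small subunit, where EIF1AD has been found, are represented by NOB1, the endonuclease that makes the final cut of the small subunit RNA, and its partner PNO1. NOB1 was at 147, 231 and 140.1 FPKM in the controls and at 22.9, 24.1 and 9.32 FPKM after knockdown (-3.20, adjusted p = 0.000238 from limma, lower in 3 of 3 libraries). PNO1 was at 288, 247 and 464 FPKM in the controls and at 65.8, 67.0 and 94.6 FPKM after knockdown (-2.09, adjusted p = 0.00114 from limma), with control 3 the highest of the controls. Both changed less than EIF1AD, and the ratio of NOB1 to PNO1 overlapped between the groups. Of the factors of the early small subunit precursor, NOL11, WDR3 and KRR1 had log2 fold changes of -2.75, -2.79 and -2.25. Others of this class were called at smaller changes, UTP23 at -1.72, DCAF13 at -1.53 with overlapping groups and UTP11 at -1.33. The call of DCAF13 was lost without control 1 (adjusted p = 0.0739 from limma), control 2 (0.0769) or knockdown library 2 (0.0547), and its log2 fold change was -2.15 without control 3. The call of UTP11 was lost without knockdown library 2 (adjusted p = 0.0527 from limma). That of GNL2, of the large subunit, was lost without control 1 (adjusted p = 0.104 from limma), control 2 (0.0761) or knockdown library 1 (0.151). DDX52 was called lower without control 3 (-1.06, adjusted p = 0.0223 from limma), and WDR18 without control 2 (-1.11), without knockdown library 1 (-1.07) and with a pseudocount of 0.1 (-1.48). METTL5 and BUD23, which methylate the RNA of the small subunit, had log2 fold changes of -2.07 and -1.72.

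EIF6, which keeps the large subunit from joining too early, was among the more abundant genes of the assembly list and varied widely, with 735, 1284 and 1696 FPKM in the controls and 44.1, 523 and 208 FPKM after knockdown (-2.78, standard error 0.73). Its log2 fold change was -1.82 without knockdown library 1 and -3.59 without knockdown library 2. NOP58, a core protein of the particles that guide RNA methylation, was at 515, 679 and 165 FPKM in the controls and at 54.7, 35.3 and 61.6 FPKM after knockdown (-2.95, and -3.56 without control 3). NHP2, of the particles that guide pseudouridylation, fell from a mean of 574 to 93.7 FPKM (-2.59). In EIF6 control 3 was the highest control, at 1.68 times the mean of the others, and in NOP58 it was the lowest, at 0.28 times, so that control 3 was not low in all genes of translation.

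Of the genes of mitochondrial translation, 11 of 15 had a row, and 10 were called lower and 1 higher (56.2% and 34.1% over all genes tested), with a median of -2.06. With an equal FPKM sum 7 were called lower (37.5% over all genes), and with the median of ratios 5 (30.7%), with a median of -1.10. MRPL28 of the large mitochondrial subunit fell from a mean of 30.3 to 2.55 FPKM (-3.15) and the release factor MTRF1L from 89.8 to 11.6 FPKM (-2.86). MRPS23 of the small mitochondrial subunit went the other way, from 33.1, 33.7 and 43.4 FPKM in the controls to 117, 94.98 and 86.2 FPKM after knockdown (1.41, adjusted p = 0.00491 from limma, higher in 3 of 3 libraries). MALSU1, an assembly factor of the large mitochondrial subunit, was at 196, 344 and 912 FPKM in the controls and at 9.61, 141 and 149 FPKM after knockdown. Its call at -2.70 was lost without control 3 (-2.10, adjusted p = 0.0802 from limma) and, at the limit, without control 2 (0.05). Without knockdown library 1 it was -1.44, without knockdown library 2 -3.31 and without knockdown library 3 -3.35. MRPL32 passed narrowly at -1.01 (adjusted p = 0.0480 from limma) and was lost without control 1 (0.0582), control 2 (0.153), knockdown library 1 (0.0767) or knockdown library 2 (0.194). The call of TUFM was lost without control 1 (adjusted p = 0.0518 from limma), control 2 (0.0837), knockdown library 1 (0.12) or knockdown library 2 (0.0632). That of MRPS18A was lost without control 1 (0.14), knockdown library 1 (0.0752), knockdown library 2 (0.0738) or knockdown library 3 (0.0549). Of the genes for tRNA charging 1 of 4 had a row, SARS1, which loads serine on its tRNA and was called lower at -1.89.

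Summed over the 48 genes, the FPKM were 14240, 17420 and 11680 in controls 1, 2 and 3 and 3235, 3864 and 4136 in knockdown libraries 1, 2 and 3. The sums over all 5154 genes were 602700, 721600 and 672200 in the controls and 364500, 394800 and 459000 after knockdown. Both sums were lower in every knockdown library than in every control. The larger sum covers only genes the authors had called, most of them down, and the smaller holds the 3 chosen genes. This order was therefore largely set by the selection and does not describe RNA as a whole.

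Markers of the oocyte and early embryo, and of other cells that the pools could hold, were looked up beside these genes. Of 5 markers of the oocyte and early embryo 4 had a row (H1-8, PATL2, LHX8 and FOXR1), and their sum was 302, 231 and 718 FPKM in controls 1, 2 and 3 and 1105, 1534 and 1004 FPKM in knockdown libraries 1, 2 and 3. The most abundant was H1-8, the linker histone of the oocyte. Control 3 had the highest sum of the controls through H1-8, which was at 680.5 FPKM there, 3.05 times the mean of controls 1 and 2. PATL2, at a far lower level, was also higher there (1.47 times that mean), and LHX8 and FOXR1 were lower (0.93 and 0.75 times). All 4 were called higher after knockdown, against 34.1% over all genes tested and 21.3% among genes with a symbol, H1-8 at 1.70, PATL2 at 2.63, LHX8 at 1.42 and FOXR1 at 1.61, and the call of LHX8 was lost without knockdown library 3 (adjusted p = 0.0525 from limma). Both markers of cumulus and granulosa cells, KITLG and TNFAIP6, had a row, and their sum was 79.0, 42.1 and 33.2 FPKM in the controls and 25.5, 17.9 and 18.8 FPKM after knockdown. KITLG gave most of this sum except in control 3, where it was at 12.7 FPKM and TNFAIP6 at 20.5 FPKM, 9.99 times the mean of TNFAIP6 in the other controls. Neither was called with all libraries, and KITLG was called lower without control 3 (-1.56). Of 4 other somatic markers 3 had a row (PAX6, IRF8 and F2), with sums of 122, 34.3 and 50.8 FPKM in the controls and 80.0, 47.5 and 98.5 FPKM after knockdown. Their members differed in direction. PAX6, the most abundant in the controls, was called lower (-2.49), at 109, 25.8 and 23.0 FPKM in the controls and 7.12, 7.88 and 4.58 FPKM after knockdown. Without control 1, the highest, its log2 fold change was -1.78. IRF8 and F2 were called higher (1.60 and 2.41), and F2 was the most abundant after knockdown, at 53.1, 24.9 and 60.6 FPKM. Without control 3 that of F2 was 3.13. None of these 9 markers was at 0 in any library. Relative to controls 1 and 2, RPS3A was lower and H1-8 higher in control 3 and in all knockdown libraries, and the part of these differences in the levels of EIF1AD, EIF3I and RPS3A was not tested.

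Genes with the pattern most like each of the 3 genes were found by the Euclidean distance of centred log2(FPKM + 1) values over the 6 libraries, among the other 455 genes with a symbol. Nearest to EIF1AD were DUSP11 (0.451), OSGEPL1 (0.844), CCNE1 (1.04), GABPA (1.40) and LARP4 (1.40), where the median distance was 4.199. DUSP11 followed EIF1AD closely, with 239, 338 and 196 FPKM in the controls and 7.14, 16.1 and 11.7 FPKM after knockdown, and like EIF1AD it was highest in control 2 and knockdown library 2. Nearest to RPS3A were RESF1 (1.09), ELL2 (1.18), PTBP3 (1.26), DUSP11 (1.28) and GABPA (1.30), with a median distance of 4.01. RESF1, ELL2 and PTBP3 shared with RPS3A a control 3 far under the other controls, as in ELL2 with 67.2, 87.6 and 22.7 FPKM in controls 1, 2 and 3. Nearest to EIF3I were MPZL3 (0.309), SETDB2 (0.334), MLLT10 (0.445), HSF2 (0.458) and RINT1 (0.463), with a median distance of 1.40, and all 5 had far lower FPKM than EIF3I. The pseudocount compresses such low values, and the mean FPKM of HSF2 was 6.29-fold and that of MLLT10 3.84-fold lower after knockdown, against 2.41-fold for EIF3I. The other 3 were between 2.29-fold and 2.79-fold lower. EIF1AD and RPS3A lay 1.62 apart, RPS3A being the 9th nearest gene to EIF1AD and EIF1AD the 12th nearest to RPS3A, while EIF3I lay 4.09 from EIF1AD and 4.01 from RPS3A. These distances use the same libraries on which EIF1AD and RPS3A were chosen for their fall, so that their closeness to each other and to other genes of steep fall was largely set by that choice.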

How the data were processed

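RNA was measured in 3 control and 3 YBX1 knockdown libraries of pooled goat embryos, grouped by their GEO labels. The authors trimmed reads with fastp, aligned them to goat genome ARS1 with HISAT2, counted uniquely mapped reads with featureCounts and deposited FPKM values. The same deposited table holds the authors' DESeq2 results, a log2 fold change with its raw and adjusted p-value for each gene, which were not used beyond counting the calls in each direction. Symbols came from pairs of identifiers and gene symbols in a supplementary sheet of the study, of which a part was given here, and 456 genes matched. Whole fragments were recovered from the FPKM steps for all 5154 genes (tolerance 0.0005 fragments, largest distance 0.00044), and 60.2% of the gene lengths were multiples of 3.

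The groups were compared on log2(FPKM + 1) in R 4.3.3 with limma 3.58.1, by lmFit and eBayes with a trend of the variance on intensity. Genes entered with a mean FPKM of 1 or more, and the p of the 4500 genes left were adjusted by Benjamini-Hochberg. This included all 3 chosen genes and all 48 genes of translation with a row, and counts of calls in the text leave the 3 chosen genes out unless stated. The fit was tested on simulated data in which 195 of the 4493 genes tested had a change, up or down. There, 0 unchanged genes were called. In the real table most genes were called, so this run does not show how reliable those calls are. Adjustment within a table of called genes is mild. The members and the lists were chosen with earlier results of these data known. The genes named with values came from the 3 chosen genes, the genes of the translation lists with a row and the markers with a row. For each chosen gene, the 5 genes of nearest pattern and the genes next to it in the order of falls were also named. Examples within the lists were picked by role and by the spread of their libraries after their values were seen. The 13 alternatives were a pseudocount of 0.1, no filter, a mean FPKM of at least 5, 2 scalings between libraries, the replicate block, no intensity trend, and each of the 6 libraries left out. Tables and plots were made with pandas 2.3.3, numpy 2.4.6 and matplotlib 3.10.9. The RefSeq annotation of goat assembly ARS1.2 was used only for the names of neighbouring genes and for whether they overlap the chosen genes. No coordinates are given, and sequences were not used here.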

Additional observations from a re-analysis of the deposited data

How the results depend on the processing

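Scaling to an equal FPKM sum moved the log2 fold change of EIF1AD to -3.848, of EIF3I to -0.543 and of RPS3A to -3.656, with 1669 genes called lower and 1571 higher, against 2530 and 1534. Of the genes of translation 28 of 48 were lower, or 26 of 45 without the 3 chosen genes. The median of ratios gave -3.574, -0.259 and -3.371, with 1348 genes lower (30.7% of 4393) and 1574 higher (35.8%), so that higher calls outnumbered lower ones, and 21 of 48 genes of translation lower, or 19 of 45 without the chosen genes. PABPC1, EIF5A2 and DDX52 came to lie above 0. Both scalings rest on a table of called genes, most of them called down. Of the other 45 genes, 13 lost their call under the former and 20 under the latter. A pseudocount of 0.1, no filter, a mean FPKM of at least 5 and no intensity trend lost no call among them. Leaving out each library in turn gave log2 fold changes of -4.883 to -4.258 for EIF1AD, -1.32 to -1.132 for EIF3I and -4.839 to -4.102 for RPS3A, 34 to 43 of 48 genes of translation lower (31 to 40 of 45 without the chosen genes) and 2 higher, and 2193 to 2556 genes lower and 1431 to 1534 higher. Over all genes tested in these fits, 50.0% to 57.4% were lower and 31.8% to 34.5% higher. With the replicate number as a block (replicate block), the 3 log2 fold changes were as without it, 41 of 48 genes of translation were lower and 2 higher (MRPL32 was lost), and 2542 genes were lower and 1535 higher, against 2530 and 1534. The deviations of same-numbered libraries had correlations across genes of 0.095, 0.14 and 0.163, and each library correlated best with its own number. As the lowest was under 0.1, the libraries were taken to share only a number. Of the 3 chosen genes EIF1AD had the fewest fragments, 26 in its lowest library, and an error of counting alone understates the spread, since amplified copies are not independent molecules.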
